A study of Rattus norvegicus with 9 samples.

Results

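The genes described here encode the channels and transporters that move magnesium across the membranes of most cells. They are 10 protein-coding genes, found by symbol among the 35360 genes of the deposited count table: Trpm7, Magt1, Cnnm2, Cnnm3, Cnnm4, Slc41a1, Slc41a2, Slc41a3, Mrs2 and Nipa2. All 10 were among the 15460 genes with enough counts to be tested. RNA came from the middle of rat femoral fractures in 3 groups of 3 libraries, and the labels name a gel in every group. The gel was given alone (Gel), with the bisphosphonate alendronate, ALN in the labels (ALN gel), or with a metal-organic framework of magnesium and ALN (Mg-ALN gel). Both ALN groups thus carried the drug, and no library came from a fracture without gel. No group was given magnesium without ALN. Mg-ALN gel differed from ALN gel in the framework as well as in magnesium, and these cannot be told apart here. The title speaks of osteoporotic fracture, but the labels give no strain, age, sex, dose, time after fracture or way of producing osteoporosis, and do not say whether replicates were separate animals. The p-values below measure only the spread between these libraries, which may be technical in part.

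Magnesium is the most abundant divalent cation inside cells, and ATP is largely bound to it. Trpm7 is a plasma membrane channel joined to a kinase and admits magnesium, calcium and zinc, the CNNM proteins and Slc41a1 are linked to the extrusion of magnesium from the cell, and Mrs2 is the magnesium channel of the inner mitochondrial membrane. In bone, magnesium is a component of the mineral and affects both osteoblasts and osteoclasts. By the labels, only Mg-ALN gel was made with magnesium. The comparisons below ask whether the tissue's own magnesium transport genes were expressed differently among the gels.

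Total counts per library ranged from 13388689 to 18763270, and the 10 genes together took 3581 to 8123 of them. Mitochondrially encoded genes took 4.16% to 17.5% of counts with Gel, 7.61% to 39.5% in ALN gel and 10.6% to 31.6% in Mg-ALN gel. Mg-ALN gel library 1 had the fewest genes detected of the 9 (16631). Levels are given as CPM, counts scaled by TMM to a common depth. All 8 osteoblast markers looked for were in the table. They summed to 40820 to 104700 CPM in Gel, 16100 to 31280 in ALN gel and 28620 to 36070 in Mg-ALN gel, so by this sum Gel lay above both other groups. Most of that sum was Col1a1, with a mean of 37240 CPM over the 9 libraries. Singly, only Col1a1 lay below Gel without overlap in ALN gel (against 5.03% of all genes), and Col1a1 and Phex in Mg-ALN gel (against 8.56%). Ibsp and Runx2 had positive log2 fold changes in ALN gel relative to Gel (0.44, SE 0.99, and 0.17, SE 0.33). The 10 osteoclast markers, of which Dcstamp had 3 counts in all, summed to 2158 to 17980 CPM in Gel, 21280 to 31080 in ALN gel and 3675 to 12240 in Mg-ALN gel. The 7 matched skeletal muscle markers spanned 62.5 to 9766, 52.7 to 1991 and 8.003 to 203 CPM in the same order. The part of these marker lists in the results below was not tested. The mitochondrial share was fitted as a covariate, and values with it are given for some results only. In such tissue RNA, fewer cells of a type and less RNA per cell cannot be told apart.

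Per length of transcript, Nipa2 and Magt1 were the most abundant of the 10 genes. By the authors' FPKM values (fragments scaled to gene length and sequencing depth), the mean over 9 libraries was 27.8 ± 5.595 for Nipa2 (SD, range 19.6 to 35.3) and 21.3 ± 3.52 for Magt1 (SD, range 16.3 to 27.7). Together Nipa2 and Magt1 held 44.4% to 58.8% of the summed FPKM of the 10 genes. A middle tier followed, with mean FPKM of 8.77 ± 4.19 for Slc41a1, 8.60 ± 2.72 for Slc41a2, 7.85 ± 2.83 for Trpm7, 7.28 ± 1.34 for Cnnm3 and 5.67 ± 0.606 for Mrs2. The lowest FPKM levels were those of Cnnm4 (3.55 ± 0.857), Slc41a3 (3.21 ± 1.23) and Cnnm2 (2.35 ± 1.02).

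The FPKM ranges of every pair of neighbours in this order overlapped over the 9 libraries. Magt1 nevertheless exceeded Slc41a1 in 9 of 9 libraries, and Mrs2 exceeded Cnnm4 in 9 of 9. Nipa2 exceeded Magt1 in 7 of 9, the exceptions being Gel library 1 and ALN gel library 1. Slc41a1, with the higher mean, exceeded Slc41a2 in only 3 of 9, so the order of these 2 is not resolved. Trpm7 ranked between 3 and 5 of the 10 genes in 8 libraries and ranked 9 in Mg-ALN gel library 1.

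**Figure D1:**
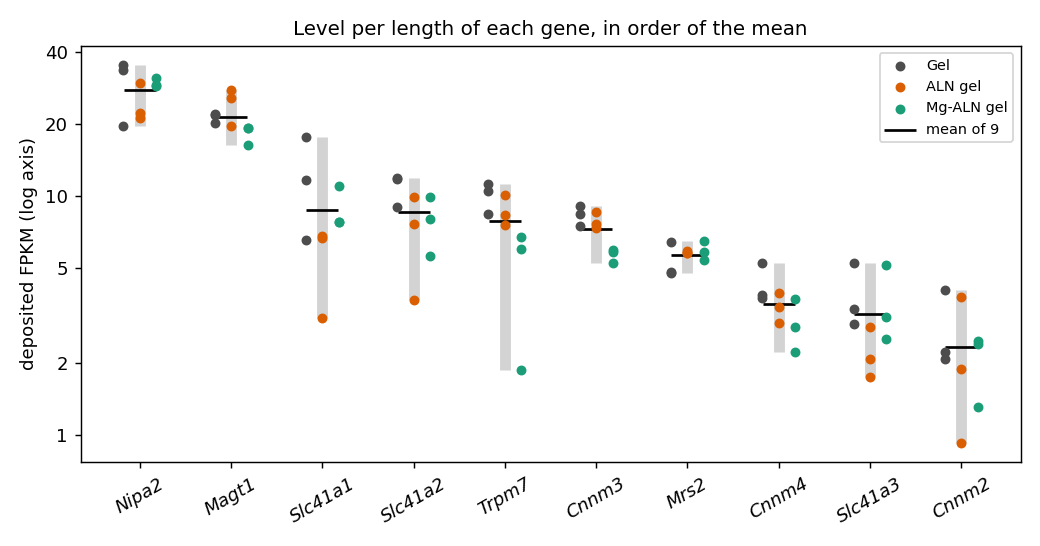
Deposited FPKM (log axis) of the 10 magnesium transport genes, ordered by their mean over 9 libraries. Points are libraries coloured by group, grey bars the range and black lines the mean; Nipa2 and Magt1 stand above the rest, and Trpm7 has 1 library at 1.88 FPKM against a median of 8.32.

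None of the 10 genes passed the edgeR test at an adjusted p under 0.05, a count of 0 in each of the 3 comparisons and in the joint test of the 3 groups, against 0% of all 15460 genes in each. At an unadjusted p under 0.05 there were 1, 2 and 2 of the 10 in ALN gel relative to Gel, Mg-ALN gel relative to ALN gel, and Mg-ALN gel relative to Gel, against 8.2%, 9.19% and 9.31% of all genes. DESeq2 also called 0 of the 10 in every comparison, while it called 135, 178 and 51 of all genes in the same order. The values below are therefore descriptions, and the unadjusted 95% intervals show which sizes of difference the 3 libraries per group leave possible.

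In Mg-ALN gel, 3 of the 10 genes (Trpm7, Magt1 and Cnnm3) had each library below all 6 libraries of the other groups, against 2.5% of all genes tested. For Magt1 the margin was small, 88.2 against 89.5 CPM. In ALN gel, 0 of the 10 lay below both other groups in this way, against 1% of all genes. Genes above both other groups were not counted. The 3 genes were singled out after their values were seen, and the windows before their transcription starts are printed here to show how their promoters compare.

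RefSeq promoter entries (assembly GRCr8, which need not be the build of the counts) matched 8 of the 10 genes by symbol. The sequences are the 250 bases before the start, 5′ to 3′ on the strand of the gene. Capitals mark the E-box CACGTG, the CCAAT box (CCAAT, or ATTGG on the other strand) and the GC box (GGGCGG, or CCGCCC on the other strand). The windows are chr3:134588114-134588363 (minus strand) for Trpm7, chrX:75145213-75145462 (minus strand) for Magt1 and chr9:46251015-46251264 (plus strand) for Cnnm3.
Trpm7: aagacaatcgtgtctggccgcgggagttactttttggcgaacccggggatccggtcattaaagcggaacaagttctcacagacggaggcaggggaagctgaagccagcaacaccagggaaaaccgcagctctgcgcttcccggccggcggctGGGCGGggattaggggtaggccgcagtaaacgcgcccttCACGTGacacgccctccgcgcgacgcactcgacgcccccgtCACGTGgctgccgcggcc
Magt1: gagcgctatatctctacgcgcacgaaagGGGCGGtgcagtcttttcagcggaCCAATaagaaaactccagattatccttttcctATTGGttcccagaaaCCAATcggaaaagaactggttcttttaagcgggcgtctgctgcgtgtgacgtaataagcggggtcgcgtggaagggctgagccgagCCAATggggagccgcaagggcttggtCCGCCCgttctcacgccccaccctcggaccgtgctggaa
Cnnm3: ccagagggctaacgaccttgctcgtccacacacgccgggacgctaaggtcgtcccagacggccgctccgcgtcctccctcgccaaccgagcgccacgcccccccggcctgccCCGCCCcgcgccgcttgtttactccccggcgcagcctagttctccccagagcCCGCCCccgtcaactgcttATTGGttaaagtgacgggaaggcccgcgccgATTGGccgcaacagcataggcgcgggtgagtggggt

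All 3 windows were rich in CpG, with 29 CpG in Trpm7, 21 in Magt1 and 30 in Cnnm3, against a median of 5 over 33469 promoters of the same length. The 6 entries of the other members also lay above that median, with 6 to 39 CpG, so this is not particular to the 3 genes. Their GC content was 65.2%, 56.4% and 69.6% in that order, against a median of 51.2%. Trpm7 had 2 matches of the E-box, a motif held by 5.59% of those promoters, and Magt1 and Cnnm3 had 0, while Slc41a3 among the other members had 1. The Slc41a3 window lies on the plus strand and the deposited coordinates put that gene on the minus strand, so the window need not be that of the counted gene. Magt1 had 4 matches of the CCAAT box and Cnnm3 had 2, a motif found in 34% of promoters, while Trpm7 had 0 and Cnnm2 also had 2. The GC box, found in 30.5%, had 1 match in Trpm7 and 2 each in Magt1 and Cnnm3. Among the other members, Cnnm2 and Nipa2 had 1 each, Slc41a2 had 4 in 1 entry and 0 in its other, and Slc41a3 and Mrs2 had 0. The cAMP response element TGACGTCA, found in 1.59%, had 0 matches in the 3. A match is only a run of letters and does not show that a factor binds there.

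Trpm7 (ENSRNOG00000057806, chromosome 3, 119259467 to 119330345, in the coordinates of the deposited table, whose build is not given in the sources used here) had 913, 835 and 940 reads with Gel, 580, 763 and 968 with ALN gel and 134, 584 and 614 with Mg-ALN gel. Its CPM were 65.0, 47.1 and 58.9, then 45.0, 47.9 and 58.8, and then 10.6, 34.8 and 39.0. Gel and ALN gel overlapped, while the Mg-ALN gel libraries were the lowest of the 9, with library 1 far under its companions. The log2 fold change of Trpm7 was −1.02 in Mg-ALN gel relative to Gel (SE 0.41, interval −1.96 to −0.08, edgeR adjusted p = 0.53) and −0.85 relative to ALN gel (SE 0.41, interval −1.78 to 0.09, adjusted p = 0.572). For ALN gel relative to Gel it was −0.17 (SE 0.41, interval −1.10 to 0.75). Without Mg-ALN gel library 1 the differences were −0.63 relative to Gel and −0.45 relative to ALN gel, so the size, though not the order of the groups, moved with that library. Summed over 8 markers, neutrophil genes stood at 8332 CPM in that library and at 87.0 to 1988 CPM in the other 8. Most of that sum was S100a8 and S100a9, with 43415 and 57433 reads there, and Mmp8 was also highest there with 2455. Mpo, Elane and Ngp had more reads in another library, Camp had 1474 reads there against 1649 in Mg-ALN gel library 3, and Ltf had 0 there. The part of these genes in the low Trpm7 level was not tested.

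Magt1 (ENSRNOG00000051408, chromosome X, 77020402 to 77061667) encodes a subunit of the oligosaccharyltransferase, the complex that attaches sugar chains to nascent proteins, and has also been described as a magnesium transporter. It had 1397, 1724 and 1427 reads with Gel, 1554, 2007 and 1490 with ALN gel and 920, 1472 and 1389 with Mg-ALN gel. Its CPM were 99.4, 97.3 and 89.5, then 121, 126 and 90.5, and then 72.5, 87.7 and 88.2. The Mg-ALN gel libraries were again the lowest, but by a small margin, 88.2 against 89.5 for the nearest Gel library. In ALN gel, libraries 1 and 2 were the highest of the 9 and library 3 lay within the range of Gel. The log2 fold change of Magt1 was −0.44 in Mg-ALN gel relative to ALN gel (SE 0.19, interval −0.88 to −0.0023, adjusted p = 0.539), 0.24 in ALN gel relative to Gel (SE 0.19) and −0.20 in Mg-ALN gel relative to Gel (SE 0.19).

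Of 8 other measured genes of the oligosaccharyltransferase, 6 had positive differences in ALN gel relative to Gel (median 0.11), 5 in Mg-ALN gel relative to ALN gel (median 0.11) and 6 in Mg-ALN gel relative to Gel (median 0.29), and 0 passed after adjustment in any of them. Stt3b, the catalytic subunit that works with Magt1, had a log2 fold change of −0.59 in Mg-ALN gel relative to ALN gel (SE 0.28, adjusted p = 0.564), and its Mg-ALN gel libraries lay below those of both other groups. Ost4, a small subunit, had 1.30 in Mg-ALN gel relative to Gel (SE 0.33, unadjusted p = 0.00358, adjusted p = 0.53). Tusc3, the paralog of Magt1 that can take its place in the complex, had −0.04, 0.19 and 0.15 in ALN gel relative to Gel, Mg-ALN gel relative to ALN gel, and Mg-ALN gel relative to Gel (SE 0.26, 0.26 and 0.26).

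Cnnm3 (ENSRNOG00000016032, chromosome 9, 43093138 to 43108486) and Cnnm4 (ENSRNOG00000015886, chromosome 9, 43049587 to 43088702) are members of the CNNM family of membrane proteins and neighbours on the same strand, 4435 bases apart. Cnnm3 had 495, 542 and 592 reads with Gel, 408, 573 and 535 with ALN gel and 303, 369 and 395 with Mg-ALN gel. Its CPM were 35.2, 30.6 and 37.1, then 31.6, 36.0 and 32.5, and then 23.9, 22.0 and 25.1. Gel and ALN gel overlapped, and the highest Mg-ALN gel library (25.1) lay below the lowest of the other 6 (30.6).

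Cnnm3 had the smallest spread of the 10 genes between libraries of a group, with an SD of 0.11 on the log2 CPM scale, against a median of 0.52 over all genes tested. Its log2 fold change was −0.54 in Mg-ALN gel relative to Gel (SE 0.17, interval −0.92 to −0.15, unadjusted p = 0.0121, adjusted p = 0.53) and −0.50 relative to ALN gel (SE 0.17, interval −0.88 to −0.11, unadjusted p = 0.0177, adjusted p = 0.497). For ALN gel relative to Gel it was −0.04 (SE 0.17), with an interval of −0.43 to 0.35, the narrowest of the 10 genes. With 1 library left out at a time, the difference of Cnnm3 stayed between −0.63 and −0.49 in Mg-ALN gel relative to Gel and between −0.54 and −0.39 relative to ALN gel. The lowest adjusted p that Cnnm3 reached under any alternative was 0.136, by DESeq2 in Mg-ALN gel relative to Gel.

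The groups overlapped for Cnnm4 in every comparison. Its CPM were 25.1, 17.4 and 17.99 in Gel, 16.9, 14.0 and 19.0 with ALN gel and 10.3, 13.6 and 17.8 with Mg-ALN gel, with Gel library 1 the highest and Mg-ALN gel library 1 the lowest. The log2 fold changes of Cnnm4 were −0.54 in Mg-ALN gel relative to Gel (SE 0.27, interval −1.16 to 0.08), −0.28 in ALN gel relative to Gel (SE 0.27) and −0.26 in Mg-ALN gel relative to ALN gel (SE 0.27). When Gel lost library 1 the first pair became −0.35 and −0.09, and when Mg-ALN gel lost library 1 the last became −0.08. Cnnm2 (ENSRNOG00000020113, chromosome 1, 266530477 to 266649398), a gene mutated in inherited low blood magnesium, varied most within groups. It had 98, 233 and 116 reads with Gel, 41, 100 and 210 with ALN gel and 54, 140 and 127 with Mg-ALN gel. Its CPM were 6.98, 13.2 and 7.27, then 3.18, 6.28 and 12.8, and then 4.26, 8.34 and 8.07, so the groups overlapped widely. The interval of Cnnm2 for Mg-ALN gel relative to Gel, −1.62 to 0.80, includes differences of the size seen for Cnnm3 in both directions.

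**Figure D2:**
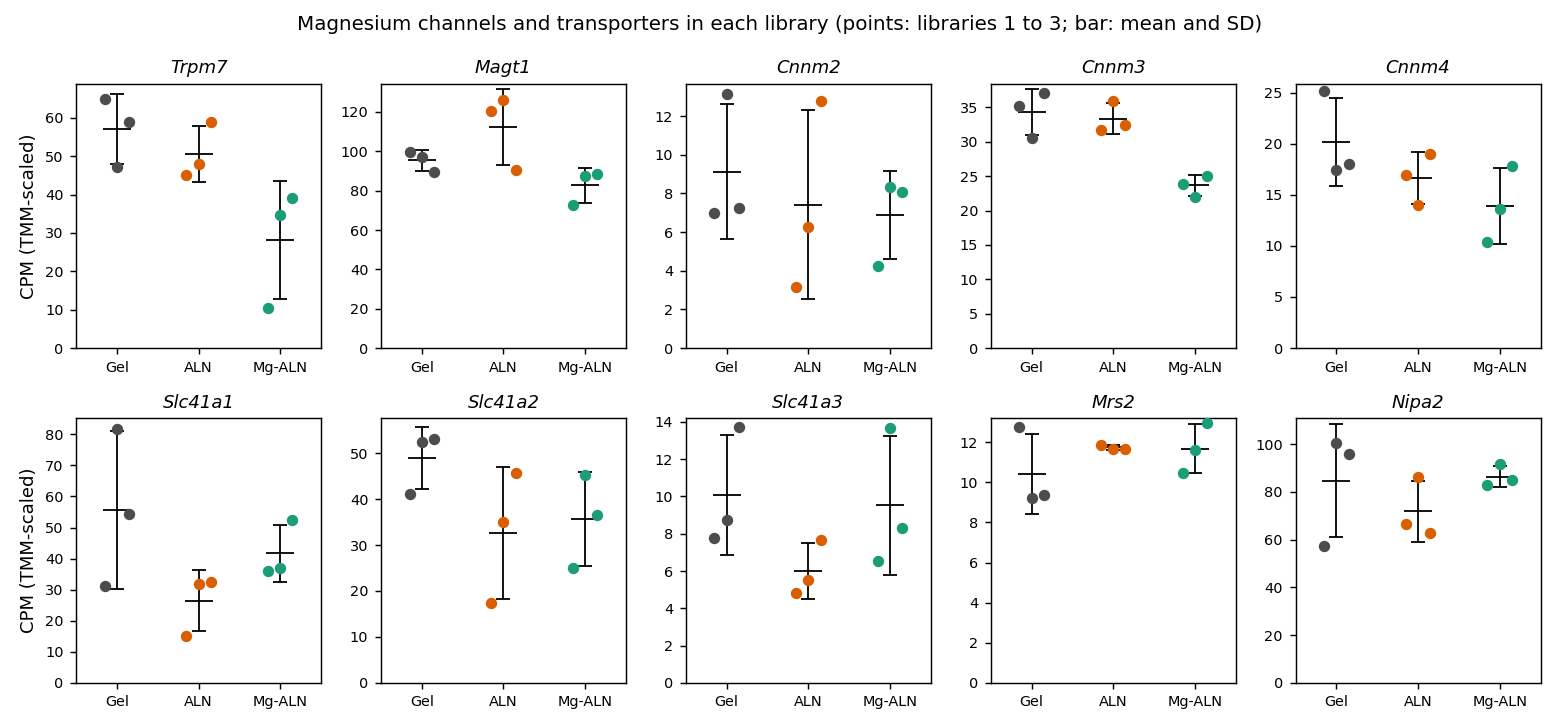
TMM-scaled CPM of each gene by group, with points for libraries 1 to 3 from left to right and bars for the mean and SD of 3 libraries. All Mg-ALN gel points lie below the other 6 for Trpm7, Magt1 and Cnnm3, with Trpm7 at 10.6 CPM in library 1.

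The SLC41 genes encode carriers related to bacterial magnesium transporters, and all 3 had lower mean CPM in ALN gel than in Gel. Slc41a1 (ENSRNOG00000042320, chromosome 13, 48607308 to 48627999), described as a sodium-dependent magnesium exporter, had 436, 1450 and 866 reads with Gel, 194, 506 and 537 with ALN gel and 457, 620 and 824 with Mg-ALN gel. Its CPM were 31.0, 81.8 and 54.3, then 15.1, 31.8 and 32.6, and then 36.0, 36.9 and 52.3. Gel library 2 was the highest and ALN gel library 1 the lowest of the 9, and Gel library 1 lay within the range of ALN gel. The log2 fold change of Slc41a1 in ALN gel relative to Gel was −1.07 (SE 0.40, interval −1.98 to −0.16, unadjusted p = 0.0257, adjusted p = 0.563), and it was −0.75 when Gel library 2 was left out and −0.79 when library 1 of ALN gel was. Each Mg-ALN gel library of Slc41a1 lay above each ALN gel library, with a difference of 0.66 (SE 0.40, interval −0.25 to 1.56, adjusted p = 0.636) that was 0.37 without ALN gel library 1. In Mg-ALN gel relative to Gel the difference was −0.42 (SE 0.40), and −0.06 without Gel library 2.

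Slc41a3 (ENSRNOG00000045821, chromosome 4, 123467549 to 123510217), the least abundant of the family per length, had 109, 155 and 219 reads with Gel, 62, 88 and 126 with ALN gel and 83, 230 and 131 with Mg-ALN gel. Its CPM were 7.76, 8.75 and 13.7, then 4.81, 5.52 and 7.66, and then 6.54, 13.7 and 8.32. Every ALN gel library lay below every Gel library, by as little as 7.66 against 7.76 CPM. The log2 fold change of Slc41a3 in ALN gel relative to Gel was −0.75 (SE 0.39, interval −1.63 to 0.13, adjusted p = 0.675). In Mg-ALN gel relative to ALN gel it was 0.67 (SE 0.39) with overlapping groups, or 0.35 when Mg-ALN gel lost library 2, and in Mg-ALN gel relative to Gel −0.08 (SE 0.39), a sign that turned with the mitochondrial share as a covariate.

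Slc41a2 (ENSRNOG00000008713, chromosome 7, 26522314 to 26607861) had 579, 930 and 848 reads with Gel, 223, 557 and 753 with ALN gel and 316, 761 and 577 with Mg-ALN gel. Its CPM were 41.2, 52.5 and 53.2, then 17.3, 35.0 and 45.8, and then 24.9, 45.3 and 36.6. The groups overlapped, and library 1 was the lowest of both ALN groups. The log2 fold changes of Slc41a2 were −0.58 (SE 0.36) in ALN gel relative to Gel, 0.12 (SE 0.36) in Mg-ALN gel relative to ALN gel, with −0.46 (SE 0.36) for Mg-ALN gel relative to Gel. The first of these was −0.28 when ALN gel lost library 1 and −0.96 when it lost library 3. Cnnm2 and all 3 SLC41 genes had their lowest CPM in ALN gel library 1, the library with the highest mitochondrial share (39.5%). With that share as a covariate the differences in ALN gel relative to Gel were smaller, at −0.85 for Slc41a1 (unadjusted p = 0.0808 by edgeR, no longer under 0.05), −0.35 for Slc41a2 and −0.51 for Slc41a3. With the replicate number as a block over all 9 libraries, Mg-ALN gel included, Slc41a1 was at −1.06 in ALN gel relative to Gel (unadjusted p = 0.00779, edgeR adjusted p = 0.33). Slc41a2 was then at −0.67 (unadjusted p = 0.0289, edgeR adjusted p = 0.44) and Slc41a3 at −0.74.

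Mrs2 (ENSRNOG00000017545, chromosome 17, 42064376 to 42082300), the mitochondrial channel, had the narrowest range of the 10 genes over the 9 libraries, 0.49 on the log2 CPM scale. It had 179, 163 and 149 reads with Gel, 153, 186 and 192 with ALN gel and 133, 195 and 204 with Mg-ALN gel. Its CPM were 12.7, 9.20 and 9.34, then 11.9, 11.7 and 11.7, and then 10.5, 11.6 and 13.0. The ALN gel and Mg-ALN gel libraries lay within the range of Gel apart from Mg-ALN gel library 3. The log2 fold changes of Mrs2 were 0.17 in ALN gel relative to Gel (SE 0.24), −0.006 in Mg-ALN gel relative to ALN gel (SE 0.24), a sign that turned with the scaling, and 0.17 in Mg-ALN gel relative to Gel (SE 0.24, interval −0.39 to 0.72).

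Nipa2 (ENSRNOG00000012690, chromosome 1, 114348038 to 114371897), a magnesium transporter of the plasma membrane, had 807, 1782 and 1529 reads with Gel, 857, 1374 and 1032 with ALN gel and 1050, 1536 and 1338 with Mg-ALN gel. Its CPM were 57.4, 100.5 and 95.9, then 66.5, 86.2 and 62.7, and then 82.8, 91.5 and 85.0. Gel held the lowest library and the 2 highest, so the groups overlapped in every comparison that includes Gel, and Mg-ALN gel overlapped ALN gel as well. The log2 fold changes of Nipa2 were −0.24 in ALN gel relative to Gel (SE 0.24), 0.27 in Mg-ALN gel relative to ALN gel (SE 0.24), with 0.03 for Mg-ALN gel relative to Gel (SE 0.24), where the sign turned without the filter on low counts and with some libraries left out.

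**Figure D3:**
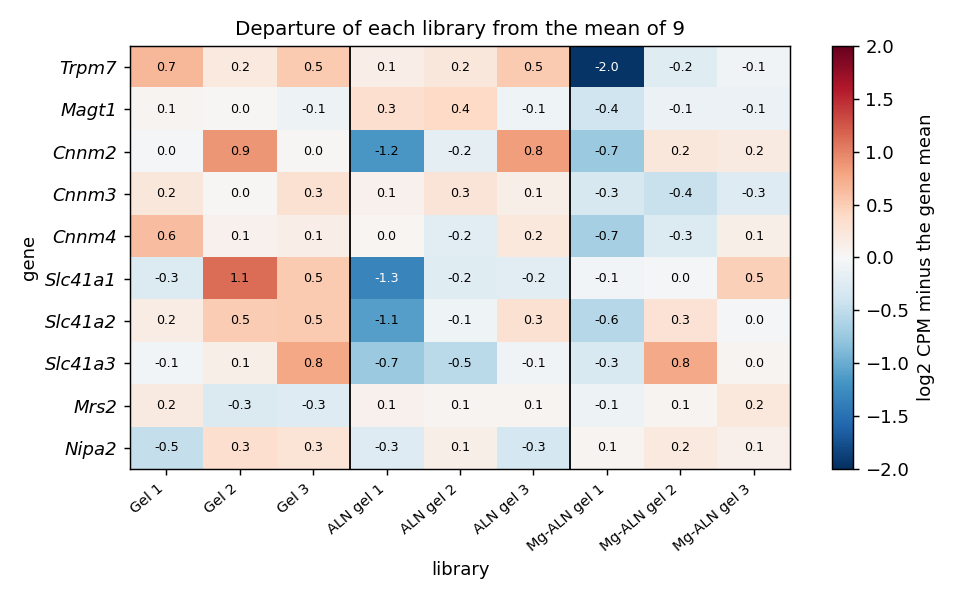
Log2 CPM of each gene in each library, minus the mean of that gene over the 9 libraries (colour and number). Trpm7 in Mg-ALN gel library 1 is the lowest cell at −1.95, and ALN gel library 1 is low for Cnnm2 and the 3 SLC41 genes.

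As a list, the 10 genes had mostly negative differences relative to Gel. In ALN gel relative to Gel, 8 of 10 were negative with a median log2 fold change of −0.26, against 50.2% negative and a median of −0.0014 over all genes tested. At an unadjusted p under 0.05, 1 gene was lower (Slc41a1, against 2.42% of all genes) and 0 were higher (against 5.78%). With the replicate block 2 genes had an unadjusted p under 0.05 (Slc41a1 and Slc41a2), and with the mitochondrial covariate 0 had. The groups did not overlap for 1 gene in the lower direction (Slc41a3, against 5.03%) and for 0 in the higher (against 11.1%). The median was −0.14 when ALN gel lost library 1 and −0.39 when it lost library 3.

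In Mg-ALN gel relative to Gel, 8 of 10 were also negative, with a median of −0.41, against 52.2% negative and a median of −0.03 over all genes. An unadjusted p under 0.05 was reached by 2 genes in the lower direction (Trpm7 and Cnnm3, against 3.88%) and by 0 in the higher (against 5.43%). The groups did not overlap for 3 lower genes (Trpm7, Magt1 and Cnnm3, against 8.56%) and for 0 higher (against 9.76%). The median was −0.16 with the mitochondrial share as a covariate and −0.21 when either Gel library 2 or library 1 of Mg-ALN gel was omitted. This comparison and that of ALN gel share the 3 Gel libraries, so a low or high Gel value enters both.

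In Mg-ALN gel relative to ALN gel, 6 of 10 were negative, with a median of −0.06, against 53.6% and −0.04 over all genes. That median was 0.10 when ALN gel lost library 3, 0.11 when Mg-ALN gel lost library 1 and −0.22 when ALN gel lost library 1. An unadjusted p under 0.05 was reached in the lower direction by 2 genes (Magt1 and Cnnm3, against 5.43%) and in the higher by 0 (against 3.76%). Magt1 lay close to that limit, with an unadjusted p of 0.049 by edgeR and 0.0376 by DESeq2. By edgeR it was 0.0588 with RLE scaling, 0.0919 without the filter, 0.0599 with the block and 0.0613 with the mitochondrial covariate. With 1 library left out, the edgeR p of Magt1 ran from 0.0217 to 0.202, under 0.05 only when ALN gel lost library 3. The groups did not overlap for 3 lower genes (Trpm7, Magt1 and Cnnm3, against 9.77%) and 1 higher gene (Slc41a1, against 6.76%). In the joint test of the 3 groups, 1 gene had an unadjusted p under 0.05 (Cnnm3, with an edgeR adjusted p = 0.526), against 9.29% of all genes.

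**Figure D4:**
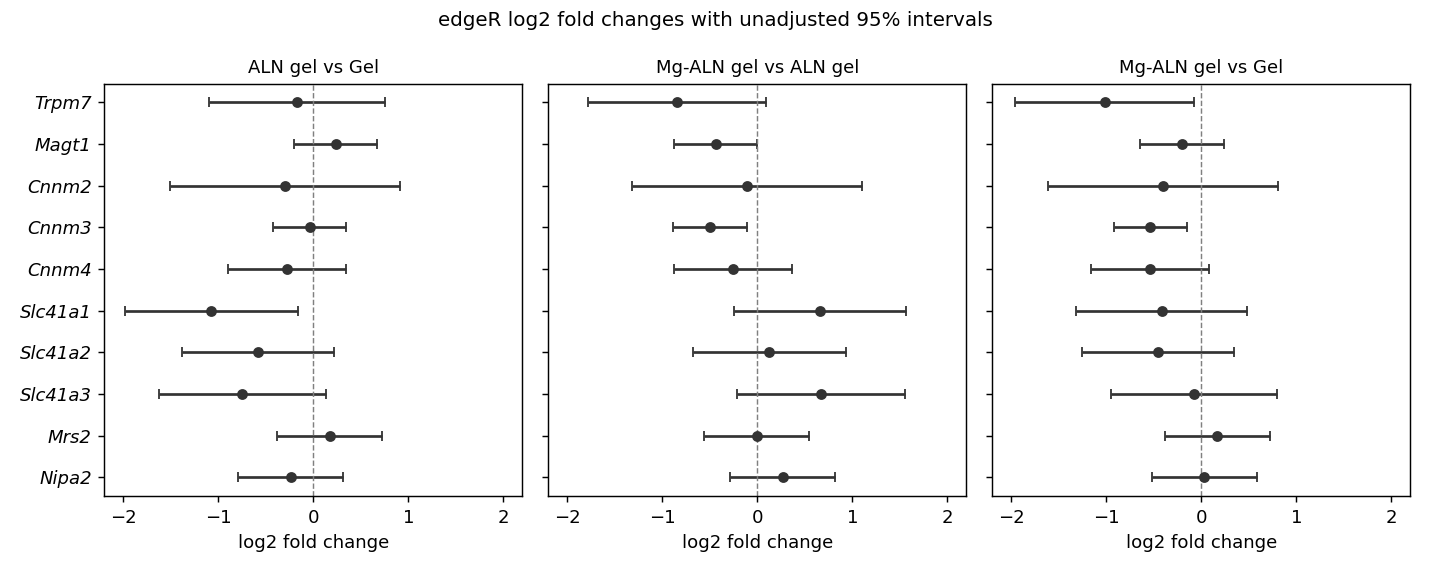
edgeR log2 fold change of each gene in the 3 comparisons, with the unadjusted 95% interval of the difference. The intervals that leave out 0 are those of Slc41a1 in ALN gel relative to Gel, Magt1 and Cnnm3 in Mg-ALN gel relative to ALN gel, and Trpm7 and Cnnm3 in Mg-ALN gel relative to Gel, and no gene passed after adjustment.

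Of 16 further genes of magnesium handling, 13 had enough counts to be tested and 0 passed after adjustment in any comparison. Cldn16, a claudin of the kidney tubule that lets magnesium through, had 0 counts in all 9 libraries, and its partner Cldn19 had 0 to 11. Trpm6, the epithelial relative of Trpm7, had 4, 11 and 16 counts with Gel, 0, 14 and 7 with ALN gel and 32, 0 and 0 with Mg-ALN gel. The library with the fewest Trpm7 reads, Mg-ALN gel library 1, was the one with the most Trpm6 reads. At these counts no difference in Trpm6 was detectable, with an SE of 1.73 in Mg-ALN gel relative to Gel.

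Of the tested 13, 4 had positive and 9 negative differences in ALN gel relative to Gel (median −0.04), 7 and 6 in Mg-ALN gel relative to ALN gel (median 0.13), and 6 and 7 in Mg-ALN gel relative to Gel (median −0.04). Ptp4a1, a phosphatase of the family that binds CNNM proteins, had 252, 435 and 249 counts with Gel, 139, 195 and 146 with ALN gel and 130, 160 and 111 with Mg-ALN gel. Each library that received ALN lay below each Gel library, and the log2 fold changes of Ptp4a1 relative to Gel were −0.87 in ALN gel (SE 0.28, unadjusted p = 0.0125, edgeR adjusted p = 0.536) and −1.11 in Mg-ALN gel (SE 0.28, unadjusted p = 0.00318, adjusted p = 0.53). Ptp4a3, of the same family, had 0.85 in Mg-ALN gel relative to Gel (SE 0.34, unadjusted p = 0.0342, adjusted p = 0.53), and Ptp4a2 had 0.14 (SE 0.20). Tmem94, described as a magnesium transporter of the endoplasmic reticulum, had 470, 673 and 664 counts in Gel and 190, 362 and 453 in ALN gel, a log2 fold change of −0.80 (SE 0.28, unadjusted p = 0.0185, adjusted p = 0.554).

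Levels of the 10 genes over the 9 libraries were also compared with each other, as a description with no test. Over the 45 pairs, Pearson's r of log2 CPM ran from −0.645 to 0.883 with a median of 0.17. The pair with the highest r was Cnnm2 and Slc41a2 (r = 0.883, Spearman's rho = 0.80), followed by Trpm7 and Cnnm4 (r = 0.846, rho = 0.833). Over 7 libraries, without the 2 farthest from the median of the first gene, r was 0.732 and 0.605. The lowest r was that of Mrs2 and Nipa2, at −0.645, and −0.31 over 7 libraries. The points share library preparation, depth and tissue makeup.

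The genes most like a member were sought among 8978 other protein-coding genes with a mean of at least 10 CPM, and are named for the 4 members with the highest first r. Each is the highest of many r over 9 libraries, so a high r comes from the selection itself. The first r was 0.929 or more for every member. An r over 7 libraries reuses libraries that served to select the gene, so it is no separate check. Nipa2 was most like Ifit3 (r = 0.991, rho = 0.983) and Ifit1bl (r = 0.976, rho = 0.933), members of a family induced by interferon. Ifit3 had 14.9, 251 and 239 CPM in Gel, 32.8, 160 and 18.6 with ALN gel and 97.3, 151 and 131 with Mg-ALN gel. The libraries with the least Ifit3 (Gel 1, ALN gel 1 and ALN gel 3) were those with the least Nipa2. Over 7 libraries, without the 2 farthest from the median of Nipa2, r was 0.982 for Ifit3.

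Among the genes most like Trpm7 was Mbnl1, a regulator of splicing (r = 0.987, and 0.901 over 7 libraries). Mbnl1 had 4.33 CPM in Mg-ALN gel library 1 and 25.4 to 44.9 CPM in the other 8, so that library was low for it as for Trpm7. Slc41a2 was most like Robo1, a guidance receptor (r = 0.978, and 0.875 over 7 libraries), and Nav1 (r = 0.964, and 0.874). Slc41a1 was most like Rbms1, which encodes a nucleic acid-binding protein (r = 0.973, and 0.872 over 7 libraries), and Sh2b2, an adaptor protein (r = 0.971, and 0.869).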

How the data were processed

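The members and gene lists were chosen with earlier results of these data known. The authors deposited read counts per gene as whole numbers, and FPKM values per gene and library. Checked against the counts, each deposited FPKM value was the count divided by gene length and by a library constant of 0.804 to 1.19 times the column total. The submitters' processing notes name HISAT2 2.0.5 and featureCounts 1.5.0-p3 among other tools, without roles. Per the labels' protocols, poly-A RNA was copied from random hexamers, and marking of strand is not mentioned. The only gene of the table that overlaps a member, a miRNA within Cnnm4, had 0 counts.

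Counts were fitted in R 4.3.3 with edgeR 4.0.16 (filterByExpr, TMM, quasi-likelihood, all 9 libraries, a coefficient per group), with two-sided tests and Benjamini-Hochberg adjustment over 15460 genes at a threshold of 0.05. The SE is the log2 fold change over the root of F, and log2 CPM used a prior count of 0.5. The code was tested on simulated data with differences larger than any of the members, so that test does not measure the power for these genes. No libraries of a group were duplicates (lowest chi-square per degree of freedom 72.3). The labels give replicate numbers shared by the groups, with no source for a pairing. Deviations from group means of same-numbered libraries correlated with r of 0.226 to 0.419 in ALN gel and Gel, over 0.1 in 3 of 3 pairs, where the 6 pairs with different numbers had −0.283 to −0.0125. They correlated with −0.127 to 0.13 in Mg-ALN gel and ALN gel and −0.199 to −0.0452 in Mg-ALN gel and Gel. Pairs with different numbers had −0.184 to 0.32 and −0.0786 to 0.175 in the same order, so such pairs could also exceed 0.1. Deviations cancel out within each group, so the ranges of same-numbered and different-numbered pairs are not independent of each other. By a limit of 0.1 in every pair, the numbers were taken to pair libraries in the first comparison only. The main fit, its intervals and its p-values used no pairing in any comparison. The replicate block was an alternative fitted to all 9 libraries, so it also paired the Mg-ALN gel libraries. Alternatives were DESeq2 1.42.0, RLE scaling, no filter on low counts, a replicate block, the mitochondrial share as a covariate, FPKM replaced by CPM per kilobase for the order of levels, and each library left out. All members are named. Other magnesium and oligosaccharyltransferase genes are named at an unadjusted p under 0.05, at most 4 per list and comparison, beside Trpm6, Cldn16 and Cldn19. Stt3b, Tusc3 and Ptp4a2 were chosen after their values were seen. Per member, the 2 genes with the highest r were taken as most like it, and 1 of these is not reported here. Of 10 oligosaccharyltransferase genes looked for, 8 matched by symbol.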

Additional observations from a re-analysis of the deposited data

How the results depend on the processing

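The count of members called was 0 in all comparisons under every alternative, the replicate block included (0, with medians of −0.25, −0.01 and −0.39 in ALN gel relative to Gel, Mg-ALN gel relative to ALN gel, and Mg-ALN gel relative to Gel). The block changed no call, and moved the count at an unadjusted p under 0.05 from 1 to 2 in the first comparison and left it at 2 in the others. In Mg-ALN gel relative to ALN gel the 2 genes were not the same as in the main fit. Magt1 dropped out (unadjusted p = 0.0599 by edgeR with the block). Slc41a1 came in, in the higher direction (0.75, unadjusted p = 0.0352 by edgeR with the block). The lowest adjusted p of any member was 0.136 (DESeq2). The median in ALN gel relative to Gel was −0.39 to −0.14 with 1 library left out. The median in Mg-ALN gel relative to Gel was −0.16 with the mitochondrial share as a covariate and −0.51 to −0.21 with 1 library left out, and that in Mg-ALN gel relative to ALN gel was −0.22 to 0.11 with 1 left out. In Mg-ALN gel relative to ALN gel, Mrs2 was 0.0227 with DESeq2, 0.0215 with RLE scaling, 0.0172 without the filter and 0.012 with the mitochondrial covariate, and −0.0873 to 0.0677 with 1 library left out. Cnnm2 in that comparison was 0.0209 with the covariate and −0.47 to 0.56 with 1 left out, and Slc41a2 was −0.18 to 0.46 with 1 left out. In Mg-ALN gel relative to Gel, Nipa2 was −0.0249 without the filter and −0.19 to 0.14 with 1 left out, and Slc41a3 was 0.11 with the covariate and −0.47 to 0.18 with 1 left out. The covariate made the differences of Cnnm2 (−0.04), Slc41a1 (−0.15) and Slc41a2 (−0.18) in that comparison smaller than in the main fit. It made those of Trpm7 (−1.10), Magt1 (−0.28) and Cnnm4 (−0.65) larger. Cnnm2 in ALN gel relative to Gel was −0.06 with the covariate and −1.0048 to 0.0608 with 1 left out. With 1 left out, Magt1 and Nipa2 in ALN gel relative to Gel were 0.07 to 0.32 and −0.48 to −0.16. The cause was not tested. Of the 10 genes, 7 to 10 kept their place in the order of FPKM with 1 library left out. The count of 3 genes lowest in Mg-ALN gel was 3 to 4 with 1 left out, a check added after seeing the data.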

Other observations

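Markers of other cells that fracture tissue can hold varied between libraries of a group. Summed CPM of 8 macrophage markers ran from 1231 to 2055 in Gel, 1596 to 2299 in ALN gel and 989.5 to 2467 in Mg-ALN gel. The 8 neutrophil markers, with Ltf at 2 counts in all, summed to 137 to 959 in Gel, 87.0 to 543 in ALN gel and 529 to 8332 in Mg-ALN gel. The 5 endothelial markers matched summed to 431 to 725 in Gel, 259 to 693 in ALN gel and 533 to 1101 in Mg-ALN gel. Every one of these ranges overlapped that of another group, and their part in the levels of the magnesium genes was not tested.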
